A study of Mus musculus with 2 samples.

Results

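The genes described here are 55 genes of DNA replication and mitosis, chosen by name from a list of well-known cell cycle genes and found on the arrays through the gene name given for each non-control spot. They were represented by 82 of 41174 non-control probes, in 109 spots per array, out of 27670 gene or probe names in all. By their textbook role, 26 were counted as mitosis genes (G2/M) and 29 as replication genes (G1/S), the replication set including the cyclins and regulators that lead from G1 into S phase. All 55 had at least 1 probe that was well above background in both fractions on both arrays.

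The samples were CD133-positive and CD133-negative fractions of GIF-5, a line of mouse gastric epithelium with the genotype Runx3-/-p53-/-, which both fractions share. CD133, the product of Prom1, is a membrane protein used to sort stem-like cells. The cells were grown in DMEM with bovine serum, detached with trypsin and separated by flow cytometry with a PE-labelled antibody, and each of 2 arrays compared RNA of CD133-positive cells, in Cy3, directly with RNA of CD133-negative cells, in Cy5. Ratios are on the log2 scale with the CD133-positive fraction on top, for each array or as a mean ± SE (n = 2), and adjusted p-values are from limma over all 15267 tested genes. GIF-5 is a single line, a dye effect cannot be told apart from the fraction, and the labels call the arrays biological replicates without naming separate cultures, so the p-values measure only the spread between these arrays.

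Prom1, the gene behind the sort, had a log2 normalised intensity of 9.45 and 9.28 in CD133-positive cells on arrays 1 and 2, against 5.63 and 5.55 in CD133-negative cells, where it was dim on both arrays. This matches the labels and is no finding, since the cells were sorted on it. The epithelial genes Krt8, Krt18, Krt19 and Cdh1 were well above background in both fractions. The log2 of the summed intensity of the 5 tested epithelial markers was 17.74 and 17.57 in CD133-positive cells, against 18.29 and 18.34 in CD133-negative cells. The keratin genes, the brightest of the 5, carried this sum, and each was below 0 on both arrays. Cdh1 (0.72 and 0.11) and Cldn7 (0.26 and 0.49) were above 0 on both, with Cldn7 dim in CD133-negative cells. Epcam and Cldn4 were not tested. Among markers of other cell types, 4 of 5 endothelial, 5 of 8 fibroblast and 2 of 7 blood cell markers, Ptprc among them, were dim in all 4 channels. The endothelial gene Cdh5 had 7.88 and 8.76 in CD133-positive cells, against 5.68 and 5.74 in CD133-negative cells, where it was dim, and its part in the results was not tested. The 3 tested of 4 smooth muscle markers differed in sign, with ratios of 0.15 and 0.11 for Acta2, 0.54 and -0.00 for Des, and -0.99 and -0.78 for Cnn1. Their log2 summed intensity was 13.05 and 13.15 in CD133-positive cells, against 12.91 and 13.05 in CD133-negative cells. The 2 tested fibroblast markers, both collagen genes well above background in both fractions, also differed in sign. Col1a1 was at -1.03 and -1.47, and Col1a2 at 0.13 and 0.03. The part of these smooth muscle and fibroblast genes in the results was not tested. Over the whole series, 251 genes (1.64%) passed an adjusted p of 0.05 in limma, and the SD of the ratios over tested genes was 0.60 on array 1 and 0.76 on array 2.

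A cell duplicates its genome in S phase and divides it in mitosis. In G1, origins are licensed when the origin recognition complex, Cdc6 and Cdt1 load the Mcm helicase, and D and E cyclins release E2F factors that switch on replication genes. The mitosis genes are switched on later, in G2, largely through promoters that carry a CHR element and CCAAT boxes, and are silent in cells that have left the cycle. Gastric epithelium turns over through dividing progenitor cells, and cultured lines cycle without phase alignment, so each fraction is a mixture of phases. In bulk RNA, fewer cells in a phase and less RNA per cell cannot be told apart.

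Promoter windows from RefSeq (GRCm38.p6) show the difference between these sets in sequence. Windows held 250 bases before and 50 after the gene start, and 44 of the 55 genes had an entry, Orc1l under its current symbol Orc1. No window was matched for Ccna2, Cdc25c, Foxm1, Aurkb, Kif20a, Tpx2, Mcm4, Gmnn, Ccne2, Ccnd1 and Ccnd2. The motifs searched, on both strands, were TTTGAA for the CHR, CCAAT for the CCAAT box, and TTCCCGC or TTGGCGC for E2F, where an E2F motif can overlap a CCAAT box. The CHR was found in 14 of 20 mitosis genes (70%) and 2 of 24 replication genes (8.33%), against 20.2% of 27025 genes with a window. An E2F motif was found in 2 of 20 mitosis genes (10%) and 13 of 24 replication genes (54.2%), against 7.79% of all genes. CCAAT boxes were found in 18 of 20 mitosis genes (90%) and 15 of 24 replication genes (62.5%), against 41.1% of all genes. A match is a description of letters and not evidence of binding.

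The 200 bases before the gene start are shown for 3 mitosis genes and 2 replication genes that recur below, 5′ to 3′, with the motifs in capitals. Mki67 (GRCm38.p6, chr7:135716380-135716579, minus strand) differed most between the arrays and held 2 CHR motifs, 3 CCAAT boxes and 1 E2F motif, Ccnb1 (chr13:100786487-100786686, minus strand) had the lowest mean ratio over both arrays among the mitosis genes and held 2 CCAAT boxes, and Cdc20 (chr4:118437344-118437543, minus strand) held a CHR between 2 CCAAT boxes. Cdc6 (chr11:98907951-98908150, plus strand) had the highest ratio among the licensing genes and held 1 E2F motif, and Prim1 (chr10:128015015-128015214, plus strand) held an E2F motif near its start. In Ccnb1 and Prim1 the E2F motif overlaps a CCAAT box.
Mki67: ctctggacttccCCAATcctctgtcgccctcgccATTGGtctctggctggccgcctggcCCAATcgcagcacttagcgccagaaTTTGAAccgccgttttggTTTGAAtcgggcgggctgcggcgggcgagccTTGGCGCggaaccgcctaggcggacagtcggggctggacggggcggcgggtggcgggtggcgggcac
Ccnb1: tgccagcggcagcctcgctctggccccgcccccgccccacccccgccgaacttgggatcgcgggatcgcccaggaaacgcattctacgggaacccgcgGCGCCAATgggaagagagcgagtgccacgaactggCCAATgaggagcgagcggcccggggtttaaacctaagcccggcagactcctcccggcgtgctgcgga
Cdc20: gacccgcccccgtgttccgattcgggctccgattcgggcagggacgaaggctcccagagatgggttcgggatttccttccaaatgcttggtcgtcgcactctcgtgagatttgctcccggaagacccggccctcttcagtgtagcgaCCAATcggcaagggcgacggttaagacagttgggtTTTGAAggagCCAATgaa
Cdc6: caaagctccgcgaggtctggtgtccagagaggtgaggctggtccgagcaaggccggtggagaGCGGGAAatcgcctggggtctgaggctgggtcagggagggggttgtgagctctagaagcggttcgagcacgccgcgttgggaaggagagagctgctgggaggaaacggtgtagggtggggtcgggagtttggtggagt
Prim1: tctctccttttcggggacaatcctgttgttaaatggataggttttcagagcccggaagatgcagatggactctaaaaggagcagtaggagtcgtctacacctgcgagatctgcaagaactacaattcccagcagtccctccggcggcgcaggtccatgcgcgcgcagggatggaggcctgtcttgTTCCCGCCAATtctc

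None of the 55 genes passed an adjusted p of 0.05 in limma, where 1.64% of all tested genes did. The smallest adjusted p, 0.061, was that of the cyclin gene Ccnd2. At an unadjusted p under 0.05, 6 genes were higher and 2 lower in CD133-positive cells, or 14.5% of the members, against 27.9% of all tested genes (11.9% higher and 16% lower). The 6 higher were the replication genes Ccnd2, Cdc6, Tyms, Mcm3, Ccne1 and Tk1, and the 2 lower were Ccnd1 and the mitosis gene Ccnb1. By size, Ccnd2 alone was at least 2-fold higher on both arrays on the brightest probe of each gene, where 2.5% of all tested genes were. Cdc6 joined it with its dimmer probe or the mean of its probes, and with median centring none was. On the brightest probes no member was at least 2-fold lower on both (2.12% of all tested genes). Other analyses called 0, 1 or 5 members, and the 5 were called lower with median centring in place of loess (Ccnd1, Ccnb1, Ccnb2, Cdc20 and Pcna). They were 9.09% of the members, below the 26.7% of all tested genes called in that analysis (13.7% lower).

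**Figure D1:**
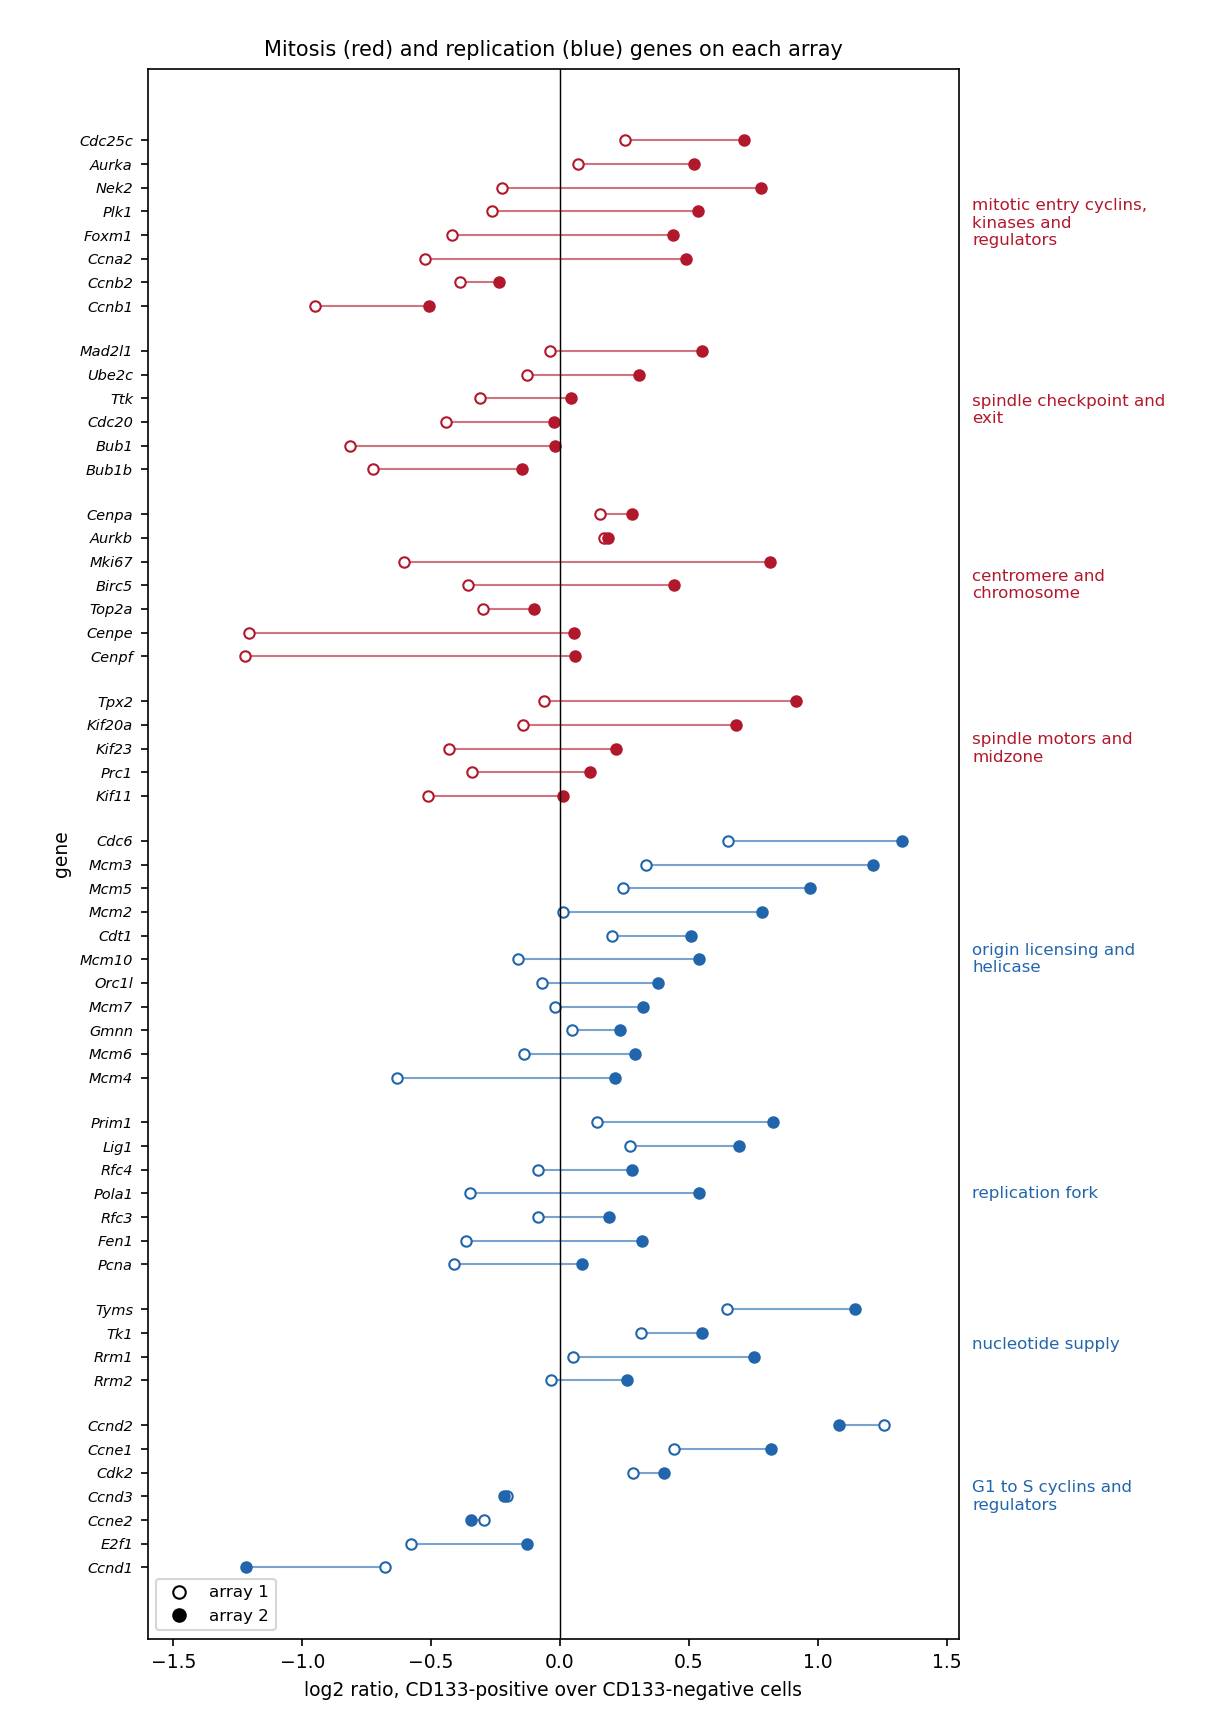
Log2 ratio of CD133-positive over CD133-negative cells for each of the 55 genes on array 1 (open circles) and array 2 (filled circles), with mitosis genes in red above and replication genes in blue below, ordered within each role by the mean ratio. Most lines run to the right, since 51 of 55 genes had the higher ratio on array 2, and the genes furthest right on both arrays are replication genes.

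Among the mitosis genes, those that drive entry into mitosis differed from each other. Ccnb1 encodes cyclin B1, the activating partner of the mitotic kinase Cdk1. Its log2 normalised intensity was 10.81 and 11.31 in CD133-positive cells on arrays 1 and 2, against 11.76 and 11.82 in CD133-negative cells. It was lower in CD133-positive cells on both arrays, as were 39.7% of all tested genes. Its ratios were -0.95 and -0.51, with a mean of -0.73 ± 0.18 (limma adjusted p = 0.11). All 3 probes of Ccnb1 were below 0 on both arrays, with means from -0.95 to -0.73. Ccnb2, the second B cyclin, was at -0.39 and -0.24.

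The phosphatase gene Cdc25c, which removes the inhibitory phosphate from Cdk1, was at 0.25 on array 1 and 0.71 on array 2, and the spindle pole kinase gene Aurka at 0.07 and 0.52. Both lay above 0 on both arrays without passing the test (limma adjusted p = 0.19 and 0.36), and the mean of Aurka was -0.13 with median centring. The other 4 genes of this role had opposite signs on the arrays. They were cyclin A2 (Ccna2, -0.53 and 0.49), the kinase genes Plk1 (-0.26 and 0.54) and Nek2 (-0.22 and 0.78), and Foxm1 (-0.42 and 0.44), a transcription factor of G2 genes.

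The spindle checkpoint genes lay lowest among the mitosis roles, with a median mean ratio of -0.18 over 6 genes. The checkpoint kinase gene Bub1 was at -0.81 and -0.02 and its partner Bub1b at -0.72 and -0.15. Cdc20, an activator of the ubiquitin ligase that ends mitosis, was at -0.44 and -0.02. These 3 were below 0 on both arrays, on array 2 by at most 0.15. Mad2l1, which holds Cdc20 inactive, was at -0.04 and 0.55, the ubiquitin-conjugating enzyme gene Ube2c at -0.13 and 0.31, and the kinase gene Ttk at -0.31 and 0.04.

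Genes of the centromere and of mitotic chromosomes held the widest differences between the arrays. Cenpf, a kinetochore protein gene, had a log2 normalised intensity of 10.38 and 11.65 in CD133-positive cells on arrays 1 and 2, against 11.60 and 11.59 in CD133-negative cells. It was therefore lower in CD133-positive cells on array 1 and level with CD133-negative cells on array 2, with ratios of -1.22 and 0.06. The kinetochore motor gene Cenpe did the same, at -1.21 and 0.06, and its other 2 probes shared these signs. The second Cenpf probe gave -0.34 and 0.07, a smaller difference. Cenpf was at -1.46 and -0.31 with median centring and Cenpe at -1.53 and -0.49, so both were below 0 on both arrays. Mki67, which encodes the proliferation marker Ki-67, had 12.00 and 13.50 in CD133-positive cells, against 12.60 and 12.68 in CD133-negative cells. Its ratio was -0.61 on array 1 and 0.82 on array 2, the widest difference of the 55 genes, and its second probe gave -0.75 and 0.66.

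In contrast, the aurora kinase gene Aurkb (0.17 and 0.19) and the centromeric histone gene Cenpa (0.15 and 0.28) were above 0 on both arrays, while with median centring each had opposite signs on the arrays. Birc5, the survivin partner of Aurkb, was at -0.36 and 0.44. Top2a, the topoisomerase that untangles sister chromatids, was at -0.30 and -0.10, but its second tested probe was above 0 on array 2 (0.16). All 5 spindle motor and midzone genes were below 0 on array 1 and above 0 on array 2. They ranged from -0.51 for the motor gene Kif11 to -0.06 for the spindle assembly factor Tpx2 on array 1, and from 0.01 to 0.92 for the same genes on array 2. Kif11, Kif23 and Prc1 were below 0 on both arrays with median centring, where the medians of this role were -0.63 and -0.11.

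Among the replication genes, the 11 licensing genes had a median of 0.01 on array 1 and 0.51 on array 2, and none was below 0 on both arrays. With median centring 5 of them were (Mcm4, Mcm6, Mcm7, Gmnn and Cdt1), and the medians were -0.26 and 0.17. Cdc6, which loads the helicase onto origins, had a log2 normalised intensity of 10.24 and 10.82 in CD133-positive cells on arrays 1 and 2, against 9.59 and 9.49 in CD133-negative cells. It was higher in CD133-positive cells on both arrays, as were 32.6% of all tested genes. Its mean ratio was 0.99 ± 0.22 (limma adjusted p = 0.10). A second, dimmer Cdc6 probe gave 1.36 and 1.63. Its loading partner Cdt1 was at 0.20 and 0.51, and Gmnn, which encodes the Cdt1 inhibitor geminin, at 0.05 and 0.23. Orc1l, the largest subunit of the origin recognition complex, was at -0.07 and 0.38.

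The 6 subunits of the Mcm2 to Mcm7 helicase, which act as 1 complex, did not share a level. On array 1 they ran from -0.63 for Mcm4 to 0.34 for Mcm3, with a median of -0.004, and on array 2 from 0.21 to 1.21 for the same subunits, with a median of 0.55. Mcm3 had a mean of 0.77 ± 0.26 (limma adjusted p = 0.17), was at 0.33 with median centring, and its second probe gave 0.33 and 1.09. Mcm5 was at 0.25 and 0.97 and Mcm2 at 0.01 and 0.78, while Mcm6 (-0.14 and 0.29), Mcm7 (-0.02 and 0.32) and the initiation factor gene Mcm10 (-0.16 and 0.54) had opposite signs on the arrays. The order of the subunits was the same on both arrays: Mcm3, Mcm5, Mcm2, Mcm7, Mcm6 and Mcm4, from highest to lowest.

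The replication fork genes had a median of -0.09 on array 1 and 0.32 on array 2. Prim1, the primase subunit, was at 0.14 and 0.83, and Lig1, the ligase that seals Okazaki fragments, at 0.27 and 0.70. Pcna, the sliding clamp, was at -0.41 and 0.08, the flap nuclease gene Fen1 at -0.36 and 0.32, and the polymerase gene Pola1 at -0.35 and 0.54. The clamp loader genes Rfc3 and Rfc4 were at -0.09 and -0.08 on array 1 and at 0.19 and 0.28 on array 2. The smallest adjusted p of these 7 genes in limma was 0.18, for Lig1. With median centring the means of Prim1 and Lig1 were 0.14 and 0.08.

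Genes of nucleotide supply were the highest role, with a median mean ratio of 0.42 over 4 genes, and of 0.06 with median centring. Tyms, thymidylate synthase, had a log2 normalised intensity of 12.68 and 13.11 in CD133-positive cells on arrays 1 and 2, against 12.03 and 11.97 in CD133-negative cells. Its ratios were 0.65 and 1.14, with a mean of 0.90 ± 0.19 (limma adjusted p = 0.092), and a second probe gave 0.61 and 1.12. The thymidine kinase gene Tk1 was at 0.32 and 0.55. Of the ribonucleotide reductase subunits, Rrm1 was at 0.05 and 0.75 and Rrm2 at -0.03 and 0.26. With median centring the means were 0.53 for Tyms, 0.09 for Tk1, 0.04 for Rrm1 and -0.19 for Rrm2.

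The G1 cyclins differed from each other in sign. Ccnd2, cyclin D2, had a log2 normalised intensity of 14.98 and 15.05 in CD133-positive cells on arrays 1 and 2, against 13.72 and 13.97 in CD133-negative cells. Its ratios were 1.26 and 1.08 and its mean 1.17 ± 0.14 (limma adjusted p = 0.061), and its 3 probes had means from 1.17 to 1.25. It passed in limma without background correction (adjusted p = 0.049), with scaling between arrays (adjusted p = 0.046) and with a prior variance that followed intensity (adjusted p = 0.037), and its mean was 0.66 with median centring (adjusted p = 0.059). Ccnd1, cyclin D1, had 11.36 and 11.34 in CD133-positive cells, against 12.04 and 12.56 in CD133-negative cells. Its ratios were -0.68 and -1.22 and its mean -0.95 ± 0.19 (limma adjusted p = 0.091), on 1 probe. Ccnd3 was at -0.21 and -0.22.

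Cyclin E1 (Ccne1), which with Cdk2 starts replication, was at 0.44 and 0.82 with a mean of 0.63 ± 0.17 (limma adjusted p = 0.12), or 0.31 with median centring (adjusted p = 0.19). Its relative Ccne2 was at -0.29 and -0.34. The kinase gene Cdk2 was at 0.28 and 0.40. E2f1, an activator of replication genes, was at -0.58 and -0.13 on its brighter probe and at 0.15 and 0.38 on the other, so its direction depended on the probe. In these 7 genes the arrays gave the same sign, and 3 of them had the higher ratio on array 2.

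**Figure D2:**
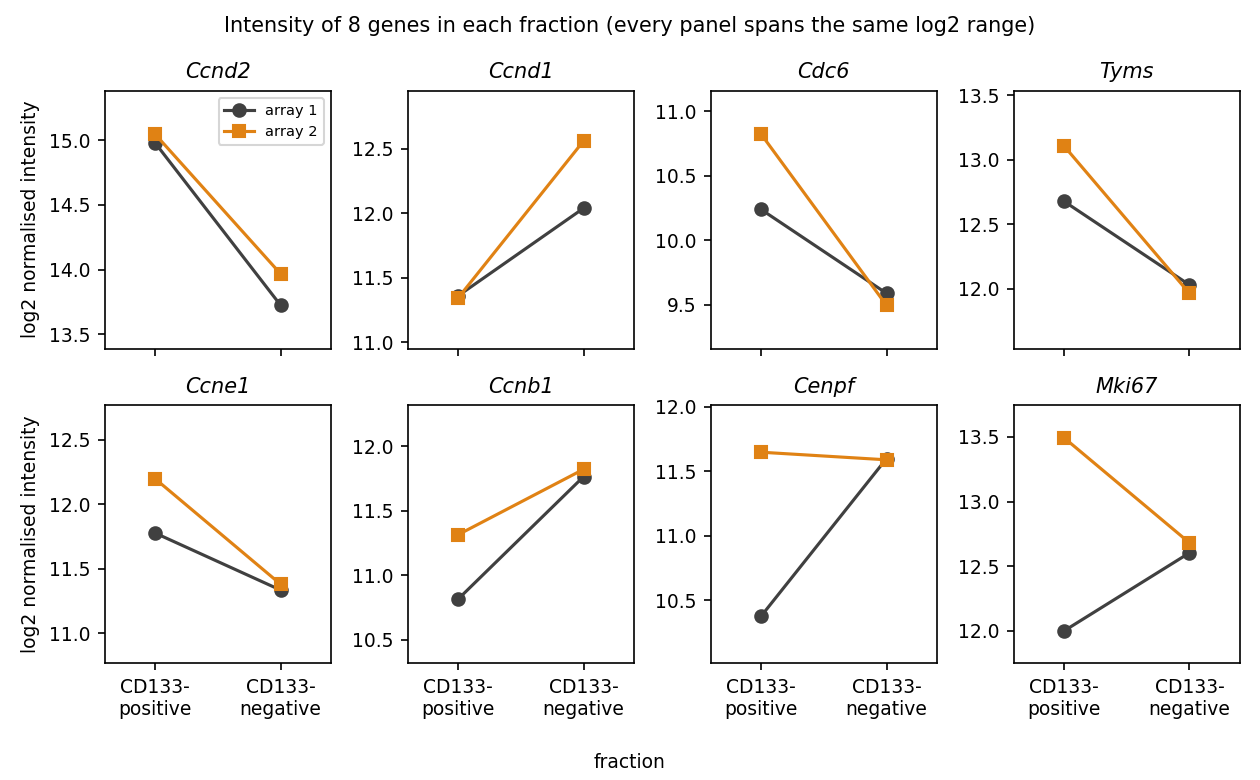
Log2 normalised intensity of 8 genes in CD133-positive cells (left in each panel) and CD133-negative cells (right) on array 1 (dark circles) and array 2 (orange squares), with lines joining the fractions of an array. Ccnd2, Cdc6, Tyms and Ccne1 slope down to CD133-negative cells on both arrays, Ccnd1 and Ccnb1 slope up, and Cenpf and Mki67 differ between the arrays at the CD133-positive point.

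The median of the mitosis genes lay below that of the replication genes on each array. On array 1 every mitosis role also had a lower median than every replication role. On array 2 the roles were mixed: mitotic entry genes (0.50) were level with licensing genes (0.51) and above replication fork genes (0.32). The G1 to S cyclins and regulators, a replication role, were lowest there on the brightest probes (-0.13). Above 0 lay 4 of 26 mitosis and 14 of 29 replication genes on array 1 (47.4% of all tested genes), and 20 of 26 and 25 of 29 on array 2 (45.4% of all tested genes). On array 1 the median ratio was -0.35 for mitosis genes and -0.02 for replication genes, a difference of -0.33, against a median of -0.02 over all tested genes. Of the mitosis genes, 22 of 26 were below the median of the replication genes there. On array 2 the median was 0.25 for mitosis genes and 0.40 for replication genes, a difference of -0.15, against -0.04 over all tested genes, and 15 of 26 mitosis genes were below the replication median. The ranges overlapped on both arrays, with quartiles of -0.52 and -0.13 for mitosis genes and -0.21 and 0.27 for replication genes on array 1, and of 0.02 and 0.53 for mitosis genes and 0.23 and 0.78 for replication genes on array 2. Genes are not replicates, so this difference has no test.

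Other ways of processing, together with leaving out the genes of less certain phase, gave differences between -0.40 and -0.32 for array 1. For array 2 they lay between -0.29 and -0.09, and the median of the mitosis genes was lower in each. The place of each set against 0 was less fixed. With median centring the median of the mitosis genes was -0.64 on array 1 and -0.06 on array 2, and that of the replication genes -0.24 and 0.13, where all tested genes had -0.05 and -0.10. The means of 18 members changed sign with it. Leaving out the genes whose phase is less certain (Gmnn, the D cyclins, Ccna2, Top2a and Mki67) gave a difference of -0.32 on array 1 and -0.29 on array 2.

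**Figure D3:**
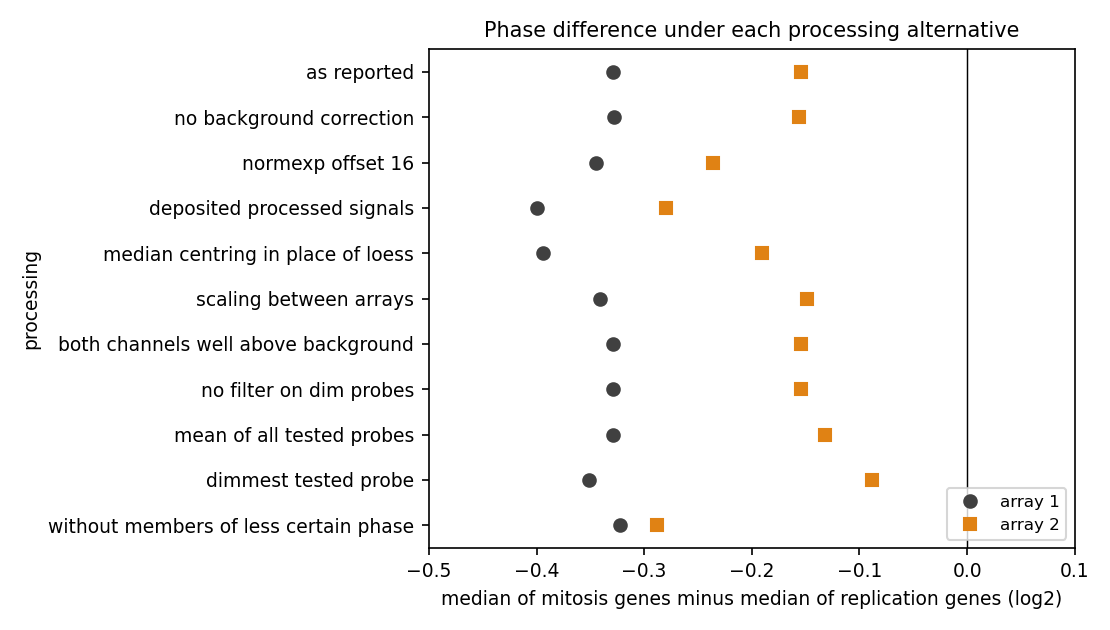
Median log2 ratio of mitosis genes minus that of replication genes (horizontal axis) under each processing alternative (rows), on array 1 (circles) and array 2 (squares). Every point lies left of 0, and array 2 is closer to 0 than array 1 in each row. Rows that changed the filter on dim probes repeat the reported values, since every member kept its probe and ratios.

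Grouped by the motifs shown above, the genes gave a similar order. The 14 genes with a CHR and a CCAAT box and no E2F motif, 13 of them mitosis genes, had a median of -0.33 on array 1 and 0.09 on array 2. The 14 genes with an E2F motif and no CHR, 13 of them replication genes, had a median of 0.10 and 0.52. Since these groups nearly restate the phases, they are no separate evidence.

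The 55 genes also differed between the arrays. The ratio was higher on array 2 than on array 1 in 51 of 55 genes (26 of 26 mitosis genes and 25 of 29 replication genes), against 43.3% of all tested genes. The median difference, array 2 minus array 1, was 0.58 for mitosis genes and 0.43 for replication genes, against -0.06 over all tested genes. The 4 exceptions, Ccnd1, Ccnd2, Ccnd3 and Ccne2, were all G1 cyclin genes. The signs of the arrays were opposite in 27 members, 16 of mitosis and 11 of replication, against 27.8% of all tested genes. Of the rest, 18 were above 0 on both arrays (32.6% of all tested genes) and 10 below 0 on both (39.7%). This balance turned over with median centring, where 7 were above 0 and 28 below 0 on both arrays, 14 of the 28 mitosis genes. The ratio was higher on array 2 in 48 to 53 of the 55 genes under the alternatives.

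**Figure D4:**
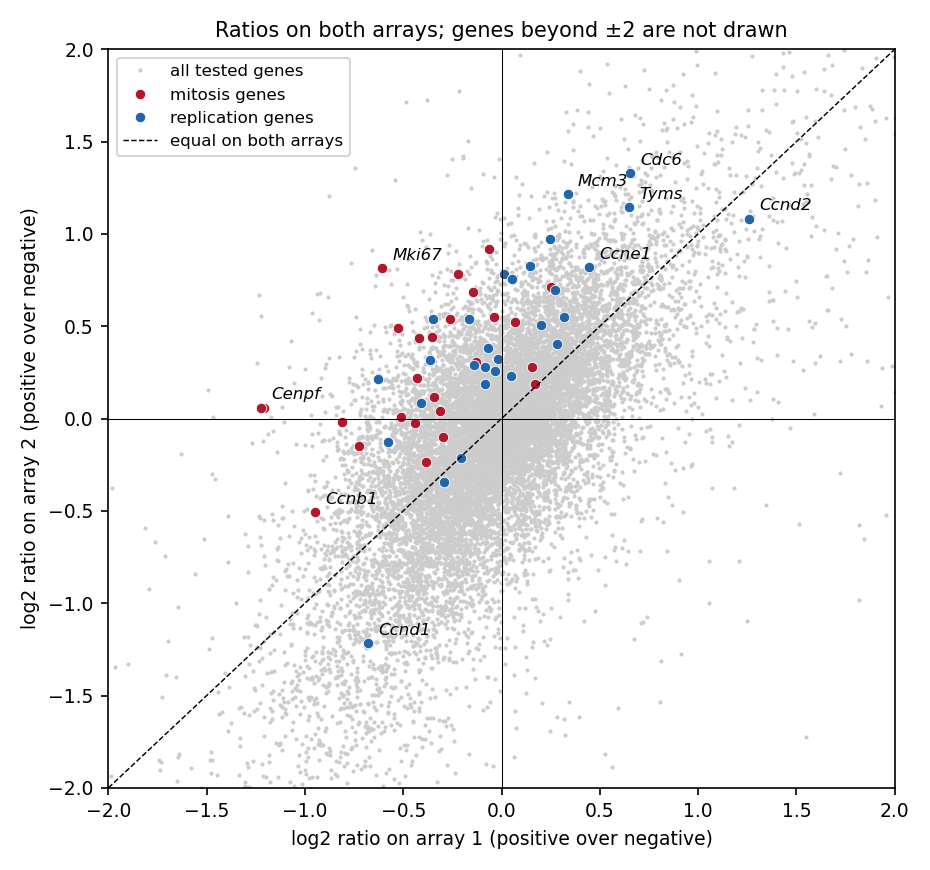
Log2 ratio on array 1 (horizontal axis) against array 2 (vertical axis) for mitosis genes (red), replication genes (blue) and all tested genes (grey), with the dashed line where both arrays are equal. All but 4 of the 55 genes lie above the dashed line, and the red points lie mainly to the left of the blue ones.

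Set apart by fraction, most of this difference lay in the channel of CD133-positive cells, which was Cy3 on both arrays. The normalised intensity of the members was higher on array 2 than on array 1 in 53 of 55 genes in CD133-positive cells, by a median of 0.54, and in 33 of 55 in CD133-negative cells, by a median of 0.06. For mitosis genes the medians were 0.74 in CD133-positive and 0.10 in CD133-negative cells, and for replication genes 0.46 and -0.03. Over all tested genes they were -0.03 and 0.03. Before any normalisation the medians over the members were 0.38 in CD133-positive and -0.07 in CD133-negative cells, against -0.08 and -0.10 over all tested genes. Mki67 and Cenpf had the widest normalised differences in CD133-positive cells. The mean spot brightness of Mki67 was 2582 and 6252 on arrays 1 and 2 there, against 10922 and 10724 in CD133-negative cells. That of Cenpf was 844 and 1821, against 5330 and 4831. There is 1 sample of each fraction per array, so these differences within a fraction have no test. Each fraction had the same dye on both arrays, so a difference in 1 dye cannot be told apart from one in the cells.

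**Figure D5:**
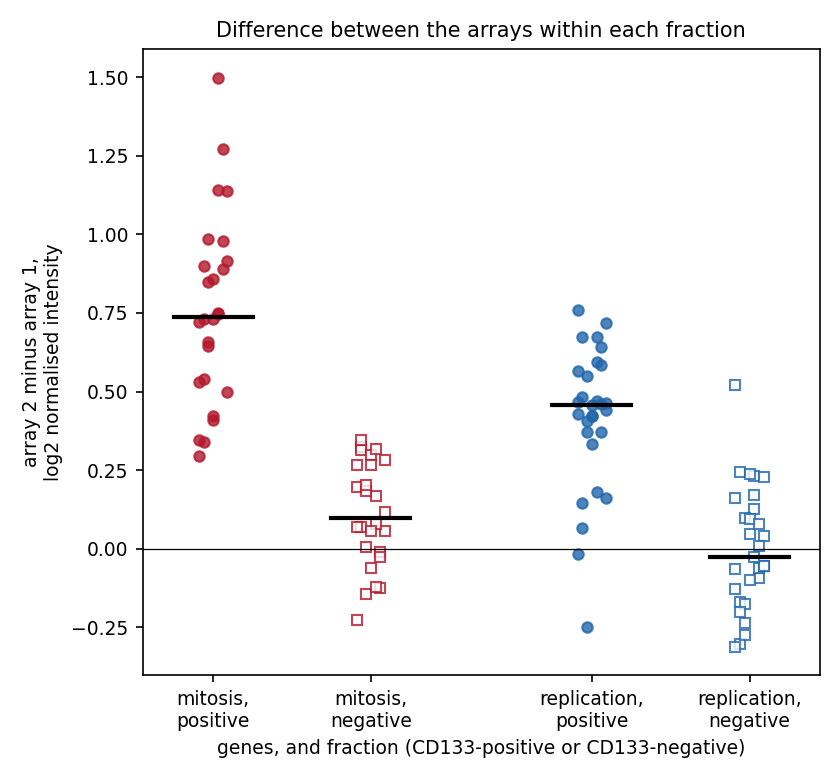
Difference in log2 normalised intensity between the arrays (array 2 minus array 1) for each gene, with CD133-positive cells as filled circles and CD133-negative cells as open squares, mitosis genes in red and replication genes in blue, and black bars at the medians. CD133-positive cells (Cy3) sit above 0 in all 26 mitosis genes and 27 of 29 replication genes, while CD133-negative cells (Cy5) lie around 0.

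Different probes of 1 gene mostly gave the same sign. Of the 82 probes, 75 were tested, and 17 genes had more than 1 tested probe. In 15 of these the probes shared their sign on each array, the exceptions being E2f1 and Top2a. The median range over the probes of a gene was 0.11 on array 1 and 0.15 on array 2, while the median difference of a member between the arrays was 0.46.

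Further mitosis and replication genes lay closer to each other than the members did. Their median difference, mitosis minus replication, was -0.20 on array 1 and -0.03 on array 2, against -0.33 and -0.15 for the 55 genes. Of 39 further replication genes, all tested, none passed in limma over all genes (7 higher and 1 lower at an unadjusted p under 0.05), and their median was -0.02 on array 1 and 0.28 on array 2. Those furthest from 0 with the same sign on both arrays were the fork protection gene Tipin (0.74 and 1.32), the histone mRNA binding gene Slbp (0.55 and 1.04), the clamp loader gene Rfc5 (0.59 and 0.92) and the methyltransferase gene Dnmt1 (0.31 and 0.96). Of 49 further mitosis genes, 48 were tested and none passed (3 higher and 6 lower at an unadjusted p under 0.05), with a median of -0.22 on array 1 and 0.25 on array 2, and 47 of the 48 had the higher ratio on array 2. The kinetochore gene Spc24 (0.63 and 1.51), the lamin gene Lmnb1 (0.33 and 1.66) and the phosphatase gene Cdc25b (0.60 and 0.64) were above 0, and Cks2, a Cdk1-binding subunit gene, was at -0.81 and -0.50.

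Genes that restrain the cycle had a median of 0.02 on array 1 and -0.20 on array 2 over 16 tested of 17, and none passed in limma (1 higher and 2 lower at an unadjusted p under 0.05). Ccng2, an atypical cyclin gene of resting cells, was at -0.57 and -1.54, the Ink4a and Arf gene Cdkn2a at -0.59 and -1.41, Cdkn2b at -0.26 and -1.49, and Cdkn2d at 0.44 and 0.53. Cdkn1a, the p53 target p21, was at 0.81 on array 1 and -1.32 on array 2, and is named because of these values. Its ratio differed between the arrays in the opposite direction to the mitosis genes, and its part in their difference was not tested. Among 15 G1 kinases and E2F family genes, none passed in limma (1 higher and 2 lower at an unadjusted p under 0.05). Mycn was at 1.09 and 1.02, the kinase gene Cdk6, a partner of the D cyclins, at -1.23 and -0.54, E2f8 at 0.17 and 1.38, and E2f3 at -0.74 and -0.62.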

How the data were processed

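Gene expression was measured on 2 Agilent 2-colour arrays, which shared 1 slide and, per the file headers, 1 scan. The authors deposited spot and local background brightness as intensity, unnormalised, together with processed intensity and a log10 ratio of Cy5 over Cy3, all output by the scanner program (Agilent Feature Extraction 9.5.3.1), as its headers state. Processed signals were background-subtracted, detrended and dye-normalised, per the file headers. The deposited value table held the same log10 ratios, so it gave no further alternative. Flags of the program were also used as deposited.

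Here, intensities were background-corrected by normexp (offset 50) and normalised within arrays by loess with control spots at weight 0. Flagged spots were left out, spots of a probe averaged, and ratios turned to log2 with CD133-positive on top. A probe was tested if at least 1 dye was well above background on each of the arrays, the same dye on both (23173 of 41174 probes). Of these 41174, 22951 were named by accession, 6659 by symbol and 3109 by synonym in RefSeq (GRCm38.p6), and 8455 kept the name in the files. The brightest tested probe represented a gene. Fraction intensities were further put on a shared scale by Aquantile. The test was limma 3.58.1 in R 4.3.3, an intercept fit with empirical Bayes moderation, two-sided, Benjamini-Hochberg over 15267 genes, with 1 residual and 2.86 prior degrees of freedom. SEs are the moderated ones. The fit was tested on simulated data.

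The members, lists and phases were chosen with earlier results of these data known. Any of the 55 members could be named. From each further list, up to 4 genes with the largest mean ratio in size and the same sign on both arrays were named, and Cdkn1a after its values were seen. The number of arrays limits the precision. Alternatives varied the background correction, signals, normalisation, filter, probe choice and variance model.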

Additional observations from a re-analysis of the deposited data

How the results depend on the processing

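The median of the mitosis genes remained below that of the replication genes on each array in every alternative run. Changes of the filter on dim probes could not move it, since each member kept its probe and ratios. On array 2 the difference was -0.28 with the deposited processed signals and -0.29 without the genes of less certain phase, further from 0 than the -0.15 reported. With the arrays averaged the difference was -0.16. With 1 array left out it is by design the value of the array kept, -0.33 or -0.15, and so no further check. The number of members that passed in limma, 0 as reported, was 1 without background correction, 1 with scaling between arrays, 1 with a prior variance that followed intensity (Ccnd2 each time) and 5 with median centring. Over all tested genes, 251 passed (211 higher, 40 lower). This became 404 (285 higher, 119 lower) without background correction, 548 (398 and 150) with an offset of 16, 486 (392 and 94) with the processed signals, 4076 (1992 and 2084) with median centring, 520 (320 and 200) with scaling between arrays, 820 (494 and 326) with the intensity-dependent prior, 156 (144 and 12) with the dimmest probe, 29 (29 and 0) without a filter on dim probes, and 0 without moderation, where 1507 genes, 3 of them members, had an unadjusted p under 0.05 in limma. Of 605 values of single members under the processing alternatives, 8 passed the threshold with the direction kept. A further 22 changed sign without passing in either setting, 18 of them with median centring. Changes of filter or variance model left the ratios of every member as reported, so their values among the 605 could not change sign. With 1 array left out, each of the 27 members with opposite signs on the arrays takes the sign of the array kept. The cause of these changes was not tested. The difference between arrays in CD133-positive cells (Cy3), a median of 0.54, was 0.68 with the processed signals and 0.38 with unnormalised brightness, and in CD133-negative cells (Cy5), at 0.06, it was 0.15 and -0.07. Over all tested genes the processed signals gave 0.10 in CD133-positive and 0.13 in CD133-negative cells, and unnormalised brightness -0.08 and -0.10. These values by fraction with other signals were chosen after seeing the data. Each array pairs both fractions, so the test on within-array ratios is itself the paired one.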
